A study of Mus musculus with 4 samples.

Results

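A set of 1549 regions stood at the top of all 4 peak lists from E11.5 mouse limbs. ATAC-seq uses the Tn5 transposase, which inserts adaptors where chromatin is open, and a peak summit marks the base at which the cut fragments pile up most. Each list gave summits with a score, taken here as the −log10 of a q-value. Scores were ranked as percentiles within their own list, from the weakest to the strongest peak. Summits were extended by 250 bp on both sides, pooled over the lists and merged where they overlapped. Of the 74669 merged regions, 23894 contained summits of every list. The members were chosen by their scores: a region was kept when its best percentile was 95 or more in every list. The other 22345 regions held by all lists are called the other shared regions.

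For each genotype, the mutant with an inserted stop cassette and the wild type, 2 libraries were made from forelimbs and hindlimbs on the c57bl6.J X 129S6.sv background. The cells were dissociated with trypsin and fixed in 1% PFA before transposition, and nothing in the labels gives the position of the cassette or says whether embryos were pooled. The title of the study concerns Maenli, a long non-coding RNA, and engrailed-1, the homeodomain factor of the ventral limb ectoderm. Peak names inside the wild-type lists share 1 replicate number with sub-numbers, so it is uncertain that these libraries came from separate samples, and the p-values below measure only the spread between libraries.

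Open chromatin at a gene's start reflects a stretch without nucleosomes, where general transcription factors and RNA polymerase assemble. Most starts of widely expressed genes lie in CpG islands, which are rich in G, C and the CpG dinucleotide and are open in nearly every cell type. Enhancers of developmental genes, by contrast, are open in the cells that use them and often lie far from the start they act on. Repeated DNA is a known difficulty of the assay: where an assembly holds only some copies of a repeat, reads from the missing copies are placed on those it has. Ribosomal DNA and the satellite DNA of centromeres are the classic cases.

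The sequences of both kinds of member follow, first 5 members that lay in or between genes far from any annotated start, shown because they carried some of the highest scores and because their letters show what they are. Each is the 200 bases around the strongest summits, on the plus strand of NCBIM37, the assembly known as mm9. They come from chr3:5860567-5860766 (nearest start Pxmp3), chr16:57391589-57391788 (an intron of Filip1l), chr6:3151417-3151616 (nearest start Samd9l), chr9:35112939-35113138 (nearest start Gm5614) and chr6:103599108-103599307 (an intron of Chl1). Capitals in the last one mark a CENP-B box, the word bound by a centromere protein, searched on both strands as TTCG, 4 bases, A, 2 bases, CGGG.
Pxmp3-nearest region: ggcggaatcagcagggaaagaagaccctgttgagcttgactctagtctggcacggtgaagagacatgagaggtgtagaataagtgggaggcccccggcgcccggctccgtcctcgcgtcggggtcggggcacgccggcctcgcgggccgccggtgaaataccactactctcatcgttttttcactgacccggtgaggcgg
Filip1l intron region: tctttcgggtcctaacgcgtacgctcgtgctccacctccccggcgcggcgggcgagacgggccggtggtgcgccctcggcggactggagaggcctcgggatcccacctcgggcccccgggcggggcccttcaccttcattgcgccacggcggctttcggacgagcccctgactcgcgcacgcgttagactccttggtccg
Samd9l-nearest region: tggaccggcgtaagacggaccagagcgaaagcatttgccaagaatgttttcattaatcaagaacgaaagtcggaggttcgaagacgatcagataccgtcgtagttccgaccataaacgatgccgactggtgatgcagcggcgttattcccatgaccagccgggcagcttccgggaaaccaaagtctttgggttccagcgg
Gm5614-nearest region: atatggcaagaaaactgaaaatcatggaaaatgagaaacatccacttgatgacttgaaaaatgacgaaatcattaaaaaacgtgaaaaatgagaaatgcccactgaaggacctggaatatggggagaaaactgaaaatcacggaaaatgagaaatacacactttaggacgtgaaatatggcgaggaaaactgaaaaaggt
Chl1 intron region: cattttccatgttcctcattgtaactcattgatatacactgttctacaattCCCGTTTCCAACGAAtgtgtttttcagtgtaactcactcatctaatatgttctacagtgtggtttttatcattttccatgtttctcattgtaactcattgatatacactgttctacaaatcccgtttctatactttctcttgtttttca
The regions nearest Pxmp3 and in Filip1l hold sequence of the 28S ribosomal RNA, the latter on the minus strand, and the region nearest Samd9l holds sequence of the 18S ribosomal RNA. The region nearest Gm5614 is of the major satellite of mouse pericentromeres, and the region in Chl1 of the minor satellite of mouse centromeres. These kinds were recognised from general knowledge of the sequences after they had been read, since no table of ribosomal or satellite sequences was used here.

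The typical member was instead a promoter. The next sequences are the 100 bases upstream of the annotated start, read in the direction of transcription, of 5 of the members with the highest mean percentile. They are shown because they hold the words that were more frequent at members, and were chosen after their values were seen. Capitals mark matches, on either strand, to the NFY word AGCCAAT, the ETS word CCGGAAG, the SP/KLF word GGGCGG or the NRF1 word GCGCATGC. The windows are chr2:174289607-174289706 on the minus strand, chr9:83728196-83728295, chr7:63305425-63305524, chr7:130521396-130521495 and chr2:173562912-173563011 on the plus strand, all NCBIM37.
Atp5e: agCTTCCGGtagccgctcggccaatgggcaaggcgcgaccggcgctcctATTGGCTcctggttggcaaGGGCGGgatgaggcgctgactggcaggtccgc
Ttk: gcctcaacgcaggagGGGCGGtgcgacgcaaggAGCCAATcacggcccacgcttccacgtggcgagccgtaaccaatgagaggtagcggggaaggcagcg
Herc2: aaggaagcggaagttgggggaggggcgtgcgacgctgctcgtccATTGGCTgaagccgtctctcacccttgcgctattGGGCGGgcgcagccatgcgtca
Lcmt1: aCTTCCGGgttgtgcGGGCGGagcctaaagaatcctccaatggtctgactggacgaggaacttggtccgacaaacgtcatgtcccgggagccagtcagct
Vapb: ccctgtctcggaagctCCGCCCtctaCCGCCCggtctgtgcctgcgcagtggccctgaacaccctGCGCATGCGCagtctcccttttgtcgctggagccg
Atp5e encodes the epsilon subunit of the mitochondrial ATP synthase, and its window holds an NFY, an ETS and an SP/KLF match. Ttk encodes a kinase of the spindle checkpoint and Herc2 a ubiquitin ligase, and both windows hold an NFY and an SP/KLF match. Lcmt1 encodes a methyltransferase of protein phosphatase 2A, and Vapb a protein that ties the endoplasmic reticulum to other membranes.

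The depth of the libraries is unknown, since the lists hold no reads. They held 79083 and 107827 summits for the stop cassette libraries and 51701 and 68471 for the wild-type libraries. A percentile of 95 fell at different scores, 29.4 and 25.1 in stop cassette replicates 1 and 2, and 17.6 and 20.03 in wild-type replicates 1 and 2. Scores are for this reason comparable within a list only. The limb label was checked on lists of marker genes. Of 53 limb mesenchyme genes in the annotation, 49 had a region within 1 kb of a start in at least 1 list, and of 8 liver genes none had. Over all protein-coding genes it was 14467 of 22238, and lists of other cell types were also high, with 6 of 6 neuron and 7 of 9 blood genes, so the check is a weak one.

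Nearly all members lay at gene starts. The midpoint of the strongest summits was within 1 kb of an annotated transcript start in 1469 of 1549 members (94.8%, 95% Wilson interval 93.6 to 95.8), against 51.8% of the other shared regions and 24.4% of all merged regions. A further 30 members lay 1 to 10 kb from a start, 44 lay 10 to 100 kb away, 2 lay beyond 100 kb and 4 lay on unplaced sequences that have no annotation here. The 2 are 0.129% of members, and without stop cassette replicate 1 the share beyond 100 kb was 0.277%. Beyond 10 kb the share was 2.97% of members and 32.4% of the other shared regions. Wilson intervals cover counting error only, and regions are not replicates, so no test was made over them.

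The position changed with rank along the whole scale of shared regions. Of shared regions whose lowest percentile was under 25, 21.3% lay within 1 kb of a start, and the share was 50.7% between 50 and 75 and 94.6% between 90 and 95. Members thus differed little in this share from the shared regions just below the threshold. Within the members the rise did not go on: the share was 95.2% (1346 of 1414) between 95 and 99, and 91.1% (123 of 135, interval 85.1 to 94.8) at 99 and above. Both members beyond 100 kb were among those 135. Between 95 and 99 there were 0 of 1414 beyond 100 kb, which allows a share of up to 0.212% (3 counts of the total; the upper Wilson limit is 0.271%).

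**Figure D1:**
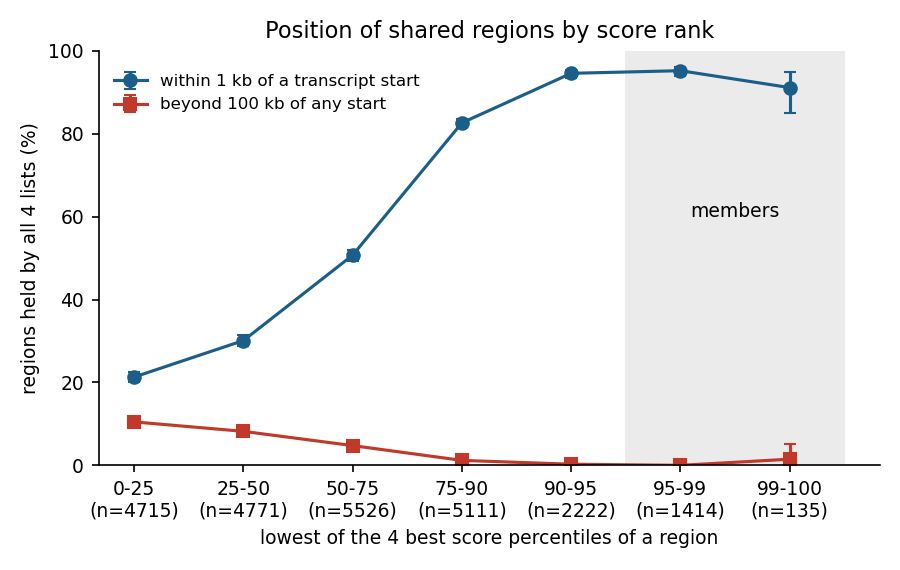
Share of regions held by all 4 lists that lay within 1 kb of an annotated start (circles) or beyond 100 kb of any start (squares), in percent, by the lowest of their 4 best score percentiles; bars are 95% Wilson intervals and the shaded bins are the members. The share at starts was 21.3% in the lowest bin, 95.2% between 95 and 99 and 91.1% above 99.

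At starts, members were concentrated just upstream. Their midpoint lay a median of 42 bp upstream of the start (signed distance -42 bp), against -20 bp for the other shared regions at starts. It was upstream in 75.7% of members and in 61.0% of the others, and within 100 bp of the start in 72.4% and 62.9%. Of the members at starts, 855 had their midpoint outside any gene, 366 in a UTR, 164 in an intron, 47 in a coding exon and 37 in a non-coding exon. The nearest start belonged to a protein-coding gene in 1416 members at starts (96.4%) and to a lincRNA in 33. Protein-coding starts on opposite strands both lay within 1 kb of 15.6% of members at starts and of 8.77% of the others. Whether such starts pointed away from each other, as at a bidirectional promoter, was not checked.

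**Figure D2:**
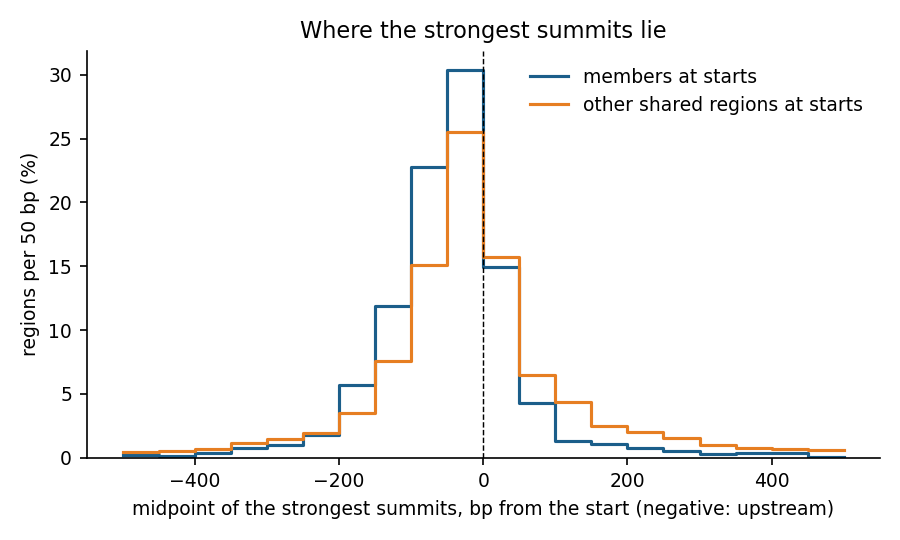
Position of the midpoint of the strongest summits relative to the nearest annotated start, in bp with negative values upstream, as the percent of regions per 50 bp, for members and other shared regions at starts. In the 50 bp just upstream of the start lay 30.4% of members and 25.5% of the others, and the others had more midpoints downstream.

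Members were also wider and held more CpG, although not more G and C. Their median width was 1345 bp (506 to 2547), and at starts it was 1355 bp against 1257 bp for the other shared regions at starts. By lowest percentile, the median width of shared regions was 1375.5 bp between 90 and 95, 1351 bp between 95 and 99 and 1304 bp at 99 and above. Members were thus not wider than the shared regions just below the threshold. The GC content of the 300 bases around the midpoint had a median of 65% in members at starts and 65.3% in the others. The ratio of observed to expected CpG had a median of 0.83 and 0.80, and it was over 0.6, a usual mark of a CpG island, in 91.6% and 78.0%. A RefSeq start could be matched by sequence to 83.6% of members at starts and to 71.5% of the others.

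Of 11 sequence words searched in those 300 bases on both strands, the NFY word AGCCAAT differed by the most percentage points between members and other shared regions at starts. It is the core of the CCAAT box, which the trimeric factor NF-Y binds in many promoters. It was found in 22.3% of members at starts (327 of 1469, interval 20.2 to 24.5), in 8.92% of the other shared regions at starts (interval 8.42 to 9.46) and in 5.79% of all merged regions. Its matches in members lay a median of 72 bp upstream of the start (median position -72 bp, quartiles -131 and -34), with 70.1% of them in the 150 bp before it. In the other shared regions at starts the median was -64 bp and that share 68.7%.

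The share with the NFY word was higher in each successive bin of rank. It was 3.88% of shared regions at starts with a lowest percentile under 25, 6.46% between 50 and 75, 16.4% between 90 and 95, 21.9% between 95 and 99, and 26.0% (32 of 123) at 99 and above. The intervals of the last 2 bins overlapped, at 19.8 to 24.2 and 19.1 to 34.4, and both lay above that of the bin from 90 to 95, at 14.9 to 18.02. The ETS word CCGGAAG, bound by the ETS family, was in 22.7% of members at starts and 15.6% of the others. By rank it was 23.6% between 90 and 95, 22.1% between 95 and 99 and 28.5% (35 of 123, interval 21.2 to 37.0) at 99 and above, with overlapping intervals in these bins.

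The GC-rich SP/KLF word GGGCGG was the most frequent, in 81.5% of members at starts and 69.3% of the others. By rank it was 79.5% between 90 and 95, 81.4% between 95 and 99 and 82.9% at 99 and above, with overlapping intervals in these bins. The ZNF143 word ACTACAATT was rare, in 1.63% (24 members) and 0.519%, and the YY1 word AAGATGGCG was in 4.77% and 3.16%. The NRF1 word GCGCATGC was in 5.65% and 4.61%, the CREB word TGACGTCA in 3.95% and 3.20%, and the short CTCF core CNAGNNGGC in 36.8% and 33.0%. Words common in tissue-specific enhancers were less frequent at these starts than among all merged regions. The homeodomain word TAATTA was in 0.953% of members at starts, 1.47% of the others and 8.08% of all merged regions, and the AP-1 word TGANTCA in 3.27%, 3.29% and 8.94%. The TATA box TATAAA was in 1.97% of members at starts, 4.07% of the others and 14.1% of all merged regions. The windows of members at starts had a median GC content of 65% and those of all merged regions 50.7%, and the part of base composition in these shares was not tested. A match to letters is not a bound site.

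**Figure D3:**
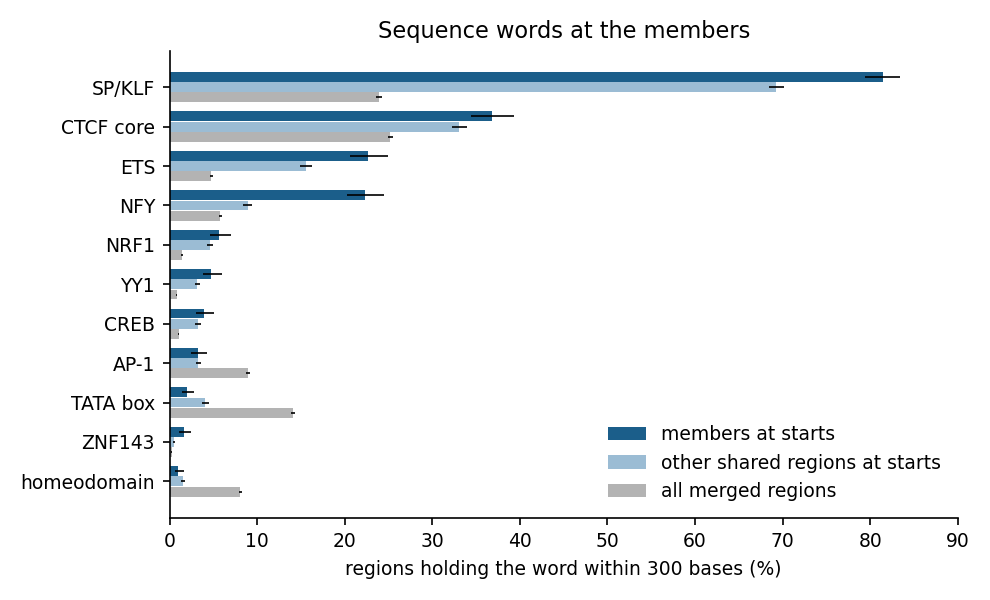
Share of regions, in percent, that hold each of 11 sequence words on either strand in the 300 bases around the midpoint of the strongest summits, for members at starts, other shared regions at starts and all merged regions; bars on the ends are 95% Wilson intervals. NFY was in 22.3% of members at starts and 8.92% of the others, whereas AP-1 and homeodomain words were more frequent among all merged regions than in either.

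Of 22238 protein-coding genes, 1676 (7.54%) had a member within 1 kb of a start, and 57.2% had a region held by all 4 lists. Of 53 limb mesenchyme genes 34 had a shared region, and the median over those 34 of the mean percentile was 63.1 against 89.8 for all protein-coding genes. No member lay at a start of the 21 ectoderm and apical ridge, 10 muscle precursor, 12 endothelial, 9 blood, 5 nerve, 6 neuron or 8 liver genes. Among 12 widely expressed genes 2 had a member, and all 12 had a shared region, with a median of 92.0. Of 50 ribosomal protein genes 47 had a shared region and 3 (6%) a member, Rpl15, Rpl22l1 and Rpl37, near the 7.54% of all protein-coding genes. Of 67 replication histone genes 51 had a shared region and none a member.

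Etv5, an ETS factor downstream of FGF signals from the apical ridge, is a limb mesenchyme gene of the list. Its shared region fell short of the threshold in the wild-type lists. The percentiles were 99.7 and 98.4 in the stop cassette libraries and 92.6 and 94.2 in the wild-type libraries. This order, both stop cassette percentiles above both wild-type percentiles, was found in 38.9% of all shared regions, and nothing is read from it at a single gene. Hspa8, a constitutive heat shock protein, and Pgk1, a glycolytic enzyme, were the members among the widely expressed genes, with percentiles of 96.3 to 97.9 and 96.2 to 98.2.

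No member lay near En1. The closest was 481323 bp from its start, at the promoter of Dbi, which encodes the acyl-CoA-binding protein (chr1:122016755-122018122). Its percentiles were 96.1 and 97.2 in the stop cassette libraries and 97.9 and 95.4 in the wild-type libraries, and they overlapped between the genotypes.

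The 10 members with the highest mean percentile joined 7 promoters and 3 regions of ribosomal sequence. First was the Pxmp3-nearest region, followed by Asah1 (acid ceramidase), the Filip1l intron region and a region whose start belongs to Trpm8 in the annotation and to Hjurp by sequence match to RefSeq. Hjurp encodes the chaperone that loads the centromeric histone. Then came Arl13b (a small GTPase of cilia), Ebag9, Lancl2, the Samd9l-nearest region, Exo1 (an exonuclease of DNA repair) and Mettl14 (a subunit of the RNA m6A methyltransferase). Asah1 scored 43.7, 46.8, 35.7 and 42.4 in stop cassette replicates 1 and 2 and wild-type replicates 1 and 2, and Arl13b scored 43.4, 43.6, 34.2 and 37.9. The strongest summits of the 4 lists lay within 10 bp of each other at Ebag9 and within 100 bp at Asah1.

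The strongest single peak of each list was a member. In stop cassette replicate 1 it was the promoter of Chchd3, a component of mitochondrial cristae, with a score of 52.4. That region had percentiles of 99.9 in stop cassette replicate 2 and 98.3 and 98.4 in the wild-type libraries. In stop cassette replicate 2 it was the Pxmp3-nearest region, at 49.99. In both wild-type lists it was the Gm5614-nearest satellite region, at 62.2 and 64.8. So 3 of the 4 lists were headed by repeat sequence and 1 by a promoter.

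The Pxmp3-nearest region, chr3:5860401-5860932, was the most isolated member, 284427 bp from the nearest start. It was 532 bp wide with 1 summit in each list, and the nearest other merged region was 34447 bp away. It scored 48.8 and 49.99 in the stop cassette libraries and 53.7 and 51.9 in the wild-type libraries, where the median member scored 35.4, 33.5, 21.3 and 24.8. The Samd9l-nearest region, chr6:3150572-3151768, lay 183489 bp from a start and scored 42.4, 41.9, 29.5 and 37.3 in the same order. The Filip1l intron region, chr16:57391026-57391950, scored 43.2, 48.2, 55.1 and 46.5. Another region lay at chr9:123370863-123371415, in the UTR of Lars2, a mitochondrial leucyl-tRNA synthetase, and scored 33.0, 40.7, 36.9 and 35.0. It was taken as 28S-type from general knowledge only, and its sequence is not printed here. Its GC content was 48.3%, against 64.7% in the Pxmp3-nearest region and 67% in the Filip1l intron region. Each of these 4 regions had a percentile above 97 in every list.

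Copies of a sequence were counted by searching its 300 bases in the assembly for matches of at least 90% identity over at least 200 bases. These ribosomal members had 2 (Pxmp3), 4 (Filip1l), 3 (Samd9l) and 2 (Lars2) copies. The assembly does not hold the ribosomal arrays in full, so such counts are lower than the number of copies in a cell. The Gm5614-nearest region, chr9:35112786-35113291, had 151 copies, the most of any member. It scored 42.1 and 37.6 in the stop cassette libraries and 62.2 and 64.8 in the wild-type libraries. A region with 47 copies lay in an intron of the gene model Gm10800, chr2:98506780-98507654, and its sequence was similar to that of the Gm5614-nearest region. Because that gene model itself lies in the repeat, the region counted among the members at starts.

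The satellite members named above had higher percentiles in both wild-type lists than in both stop cassette lists. The Gm10800 region had percentiles of 96.6 and 97.3 in the stop cassette libraries and 99.97 and 99.81 in the wild-type libraries. The Chl1 intron region, chr6:103598952-103599463, had 95.6 and 97.6 against 99.97 and 99.83. The Gm5614-nearest region had 99.8 and 99.7 against 100 and 100. These regions were chosen after their values were seen and used percentiles that chose the members, so the order is a description. They have 47, 4 and 151 copies, and the part of repeated sequence in this order was not tested. The same order was found in 12.1% of members and 3.47% of all shared regions. Among the 22 members with 3 or more copies it was found in 6, and the reverse order in 4, so it was not general among repeated members.

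**Figure D4:**
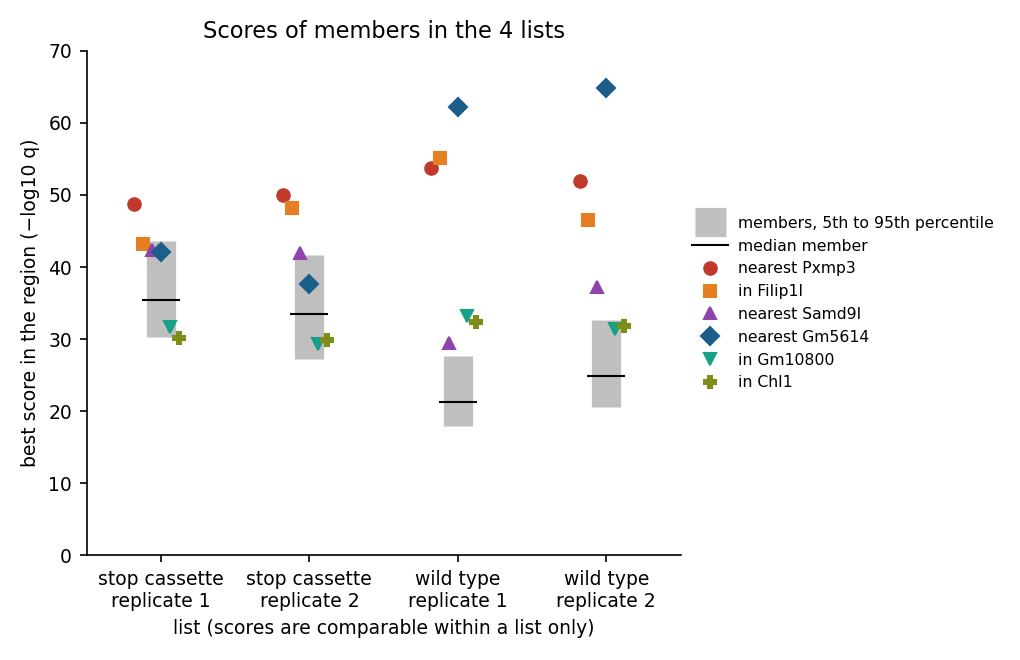
Best score (taken as −log10 q) of 6 members in each list, over the median (line) and the 5th to 95th percentile (grey) of all 1549 members. Scores are comparable within a list only. The Gm5614-nearest satellite region was at 62.2 and 64.8 in the wild-type lists and at 42.1 and 37.6 in the stop cassette lists, whereas the Pxmp3-nearest region lay above the grey range in all 4.

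Members with near-identical copies were few, and their share was higher far from starts, although most of them lay at starts. At least 2 copies were found for 36 of 1545 placed members (2.33%), for 20 of the 1469 members at starts (1.36%) and for 13 of the 46 members beyond 10 kb (28.3%, interval 17.3 to 42.5). In a sample of 1000 other shared regions the share was 1.70%. At least 10 copies were found for 3 members, the Gm5614-nearest and Gm10800 regions and a region at the start of Mir713, which has 10 copies. The CENP-B box was in 7 of 1545 members (0.453%), 0.103% of the other shared regions and 0.0536% of all merged regions. It was in the Chl1 intron region, but also in the region nearest Il6st, which had 1 copy and a GC content of 74.3%. The Gm5614-nearest and Gm10800 regions did not hold it, so the box alone does not mark satellite sequence. Sequence of mitochondrial origin, another known source of spurious peaks, was not found: 0 of 1545 members matched mitochondrial DNA over at least 100 bases at 80% identity, which allows a share of up to 0.194% (3 counts of the total). None lay on the 41 nuclear stretches that match it, but only 4 of all 74669 merged regions did. A sample of 1000 other shared regions had no match either. Matches were thus rare everywhere, so the count of 0 says little about the members.

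Some members resembled each other. In a family of 11 members, each matched at least 1 other at 80% identity or more over at least 100 bases around the summits. The family lay on chromosomes 5, 7, 10, 16 and 17, and 7 of its members lay beyond 10 kb of a start. Its highest-ranked members were 2 regions nearest Gm6712 on chromosome 17. The one at chr17:17430747-17431852 had percentiles of 99.94 and 99.87 in the stop cassette libraries and 99.50 and 99.79 in the wild-type libraries. The one at chr17:17371209-17372515 lay 80493 bp from a start and had 99.79, 99.99, 99.27 and 99.96. Their summit sequences, chr17:17431152-17431351 and chr17:17371654-17371853, are shown because they let the likeness be read directly.
First Gm6712-nearest region: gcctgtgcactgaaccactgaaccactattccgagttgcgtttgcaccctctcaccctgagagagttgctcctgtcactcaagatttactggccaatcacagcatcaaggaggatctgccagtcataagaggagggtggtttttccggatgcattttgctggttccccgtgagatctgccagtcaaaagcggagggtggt
Second Gm6712-nearest region: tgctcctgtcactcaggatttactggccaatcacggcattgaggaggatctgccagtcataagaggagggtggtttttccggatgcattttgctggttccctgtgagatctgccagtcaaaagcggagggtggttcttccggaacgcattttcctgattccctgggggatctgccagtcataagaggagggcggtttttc
Start sites of RefSeq genes, Gm6712 for the first and Gm5165 for the second, were matched to these regions by sequence. The match used sequence alone and the regions have 4 and 5 copies, so it does not show that a start lies at these positions. A second family held 4 members, 3 of them on chromosome 13, and 5 further pairs were alike.

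Other isolated members had such matches too. Of the 46 beyond 10 kb of a start, 17 were matched to a RefSeq start by sequence. Among these were starts of Hdac4, Il6st, Gatad2b, Tnrc6b and Zfp317, which the annotation places elsewhere. Of the other 29, 9 had at least 2 copies, 13 had 1 copy and a CpG ratio over 0.6, and 7 had 1 copy and a ratio of 0.6 or less. In the last 2 groups was 1 member of the family of 11, the region nearest Gm17655. Another of their members lay nearest Fos, an immediate early gene, at chr12:86795700-86797168 and 18444 bp from its start, with percentiles of 98.3, 96.2, 95.7 and 98.7. A different one lay in an intron of Pde4d, a cAMP phosphodiesterase, at chr13:110612231-110613583 and 65370 bp from a start, with 98.4, 98.6, 96.8 and 95.6. One more lay in an intron of Arid1b, a subunit of the BAF remodelling complex, at chr17:5189329-5190551, with 97.4, 96.4, 98.0 and 96.9. The regions near Fos and in Pde4d and Arid1b had 1 copy, and they were named after their values were seen, except the last, which was among the 6 members farthest from a start.

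**Figure D5:**
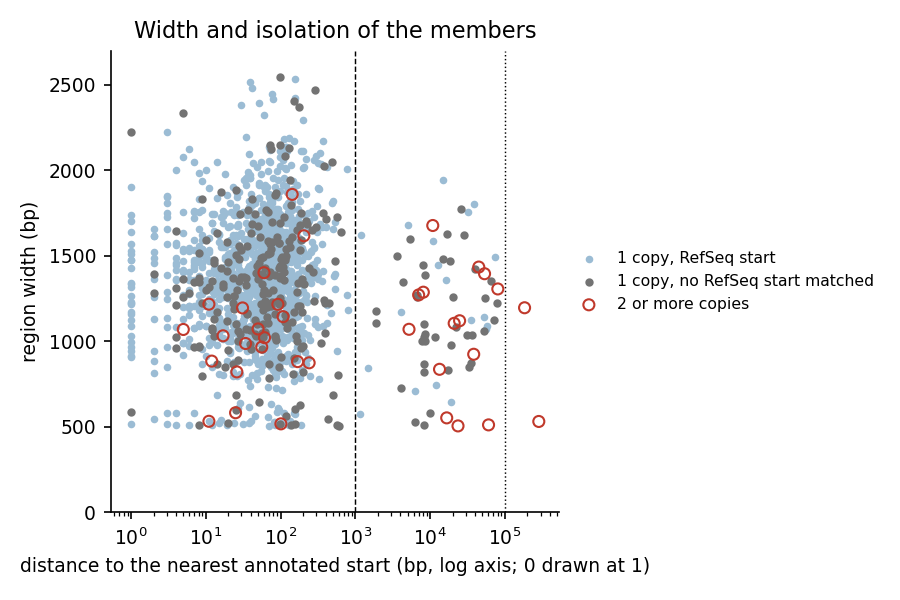
Width of each placed member in bp against the distance of its midpoint to the nearest annotated start in bp (log axis; the lines mark 1 kb and 100 kb), by copy number and by whether a RefSeq start was matched by sequence. Members reach 2547 bp near starts, and 13 of the 46 members beyond 10 kb have at least 2 copies.

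The widest members were promoters, those of Ppp3ca (the catalytic subunit of calcineurin, 2547 bp), Btg1 (an antiproliferative factor, 2533 bp) and Sap30 (a subunit of the Sin3 deacetylase complex, 2518 bp). The most summits were at Clasp1, a microtubule-binding protein, with 9 and 7 in the stop cassette lists and 5 and 7 in the wild-type lists. A single summit in every list was found in 74 members (4.78%), of which 82.4% lay at starts. Of the satellite and ribosomal members named above, 5 were of this kind, those nearest Pxmp3 (532 bp) and Gm5614 (506 bp) and those in Chl1 (512 bp), Lars2 (553 bp) and Gm10800 (875 bp).

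The threshold cut through a dense part of the scale. Just inside were Ndst2 with a lowest percentile of 95.003, Paxip1, Acyp2 and Rdh14, and just outside were Zfc3h1 with 94.992, Mblac2, Zfp389 and Top1. In all, 6275 regions reached 95 in at least 1 list, 2058 of them in exactly 1, 1466 in 2, 1202 in 3 and 1549 in all 4. Members were 40.5% and 29.96% of the regions that reached 95 in the stop cassette lists and 62.3% and 46.8% of those in the wild-type lists. By chromosome, members were 3.40% of the shared regions of X (21 members) and from 3.98% (chromosome 19) to 8.40% (chromosome 1) of those of an autosome.

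The genotypes were compared over the members as a description. Both stop cassette percentiles were above both wild-type percentiles in 418 members (27.0%), against a background of 38.9 percent of all shared regions. Both wild-type percentiles were above both stop cassette percentiles in 188 members (12.1%), against 3.47 percent. The rule used these percentiles, so nothing is read from the counts.

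Over libraries, 1 measure was tested, with 2 libraries a genotype, where the exact permutation test cannot go below p = 0.33. The rule did not count summits, but a region's best percentile is taken over its summits, so the measure is not independent of the rule. The mean number of summits per member was 2.60 and 2.55 in the stop cassette lists and 2.39 and 2.49 in the wild-type lists. The means were 2.57 ± 0.0324 and 2.44 ± 0.0735 (SD, n = 2), a difference of 0.132 (exact permutation p = 0.33, two-sided). The sign turned to -0.0467 with an extension of 100 bp and to -0.278 with lists of equal length, so the direction was not stable. The difference fell to 0.0852 without stop cassette replicate 1. In the other shared regions the means were 2.27 in the stop cassette lists and 1.93 in the wild-type lists, a larger difference of 0.332, so it was not particular to members. The share of a list's strongest 5% of peaks that lay in members was 41.1% and 30.9% in the stop cassette lists and 63.0% and 47.8% in the wild-type lists. The means were 36.0% ± 7.24 and 55.4% ± 10.7 (SD, n = 2), a difference of -19.4 percentage points. The rule used these percentiles, so the share is a description with no test. The members held 1627 and 1666 of these peaks in the stop cassette lists and 1629 and 1637 in the wild-type lists. The rule gives every member at least 1 such peak in each list, so similar numbers follow largely from the rule. The totals were 3955, 5392, 2586 and 3425 in the same order, and the share was lower in the longer lists. With lists of equal length the difference was -0.808, and without wild-type replicate 2 it was -31.5.

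Strongest summits lay close together in every pair of lists. The strongest summits of a member lay a median of 15 bp apart between the stop cassette lists, 23 bp between the wild-type lists and 20 to 22 bp between lists of different genotype. In the other shared regions the medians were 31, 40 and 34 to 41 bp. In members, the medians between genotypes lay inside the range of those within a genotype. In members with the same rule at 99 the median over all pairs was 13 bp, against 20 bp for all members.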

How the data were processed

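The 4 deposited lists, 1 per library, give summits of 1 bp and a score that the authors' lists hold as −log10 of a q-value: its lowest value is 1.30 in each list, which corresponds to a q-value of 0.05. Reads were processed with Bowtie2 2.2.6 and Picard on mm9, per the submitters' processing notes. Peak names in the deposited lists record removal of duplicate and mitochondrial reads and a mapping quality filter. The peak caller and any shift of reads for Tn5 are not given in the sources used here.

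Summits were ranked, extended and merged in Python 3.11.15. Starts and gene parts came from GENCODE M1 on NCBIM37. Copies, similarity between members and mitochondrial matches were searched with blastn 2.17.0. RefSeq promoters (32851, GRCm38.p6) were matched by sequence alone, at 97% identity over 70% of their length on the same chromosome, and no coordinates were taken from them. Shares have Wilson intervals, counts of 0 also have the limit of 3 counts, and the mean number of summits was compared with an exact permutation test. Regions were named by rank, by distance from starts, at the threshold, by width, by summits and by gene list. The code for the rule was run on 8000 simulated regions, where 200 of 200 planted ones were recovered. The planted scores lay above all others and the regions were well apart, so this checks the code alone. Members, lists and words were chosen with earlier results of these data known. The RefSeq matching, the families of similar members, the limits of 2 copies and a CpG ratio of 0.6 and the CENP-B pattern, revised once, were chosen after the sequences had been seen. One result on the limb gene list is not reported here.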

Additional observations from a re-analysis of the deposited data

How the results depend on the processing

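The threshold decided how many members there were: 3771 at 90 and 135 at 99, and 996 with lists cut to equal length. At 99 the share within 1 kb of a start was 91.1%, the share beyond 100 kb 1.48%, the share with 10 or more copies 0.741% and the median distance between strongest summits 13 bp, against 23 bp at 90. With protein-coding starts alone 93.3% lay within 1 kb. At 95% identity 0.0647% had 10 or more copies. The difference in summits per member turned to -0.0467 with an extension of 100 bp and to -0.278 at equal length. Leaving out 1 library at a time gave 1582 to 2190 members, 94.5% to 94.8% within 1 kb, 0.126% to 0.277% beyond 100 kb (0.277% without stop cassette replicate 1), differences in summits of 0.0852 to 0.197 and in the share of strongest peaks of -31.5 to -14.6, and median distances of 18 to 22 bp. The difference in summits was also 0.0333 at 99 and 0.202 with an extension of 500 bp, and that in the share of strongest peaks was -8.07 at 99. With the replicate numbers as a block the difference in summits was 0.132 (exact sign-flip p = 0.5) and that in the share of strongest peaks -19.4. The labels do not say that the numbers pair the samples, and with 2 pairs the numbers could not be checked. Ranking tied scores low, autosomes alone and distances from region edges moved no value beyond its spread. Depth is unknown, so no limit of detection can be given.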

Other observations

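Genes of the zinc finger family named Zfp were the nearest gene of 5 of the 46 members beyond 10 kb of a start (10.9%, 95% Wilson interval 4.73 to 23.0). At starts they were nearest to 34 of 1469 members (2.31%) and to 2.27% of the other shared regions. The name was chosen after the list of isolated members had been read.

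On unplaced sequences, which have neither annotation nor letters here, lay 4 members. The one on Un_random scored 35.5 and 29.9 in the stop cassette lists and 33.3 and 36.3 in the wild-type lists, percentiles of 98.5, 97.6, 99.98 and 99.97. A region at the start of mmu-mir-689-2 in an intron of Zc3h7a, with 4 copies, had percentiles of 96.6 and 99.9 in the stop cassette lists and 99.99 and 99.98 in the wild-type lists.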
